A study of Mus musculus with 12 samples.

Results

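The 10 genes described here are Atf4, a transcription factor, and 9 genes that are known to be switched on by it or to make serine, glycine and asparagine: Phgdh, Psat1, Psph, Shmt2, Mthfd2, Asns, Trib3, Chac1 and Ddit3. They were chosen by gene symbol from the 55401 genes of the deposited expression table, and all 10 were among the 12016 genes that were expressed highly enough to be tested. The symbol Ddit3 stands on a second row, with at most 1 count in any library, which was not tested. Bone marrow mesenchymal stem cells (MSCs) of C57BL/6 mice, bought as a cell stock, were left untreated, treated with TGF-β1 at 5 ng/mL, or treated with the same dose of TGF-β1 in culture supernatant (sup) of monocytic or granulocytic myeloid-derived suppressor cells, the TGF-β1/M-MDSC sup and TGF-β1/G-MDSC sup groups. M-MDSCs and G-MDSCs had been induced from C57BL/6 bone marrow with GM-CSF and IL-6 and sorted as CD11b+Ly6G-Ly6C high and CD11b+Ly6G+Ly6C low cells. Poly(A) RNA of 3 libraries per group was sequenced, and the libraries held from 73977669 to 84565450 counts. The sources describe no group that received TGF-β1 in MDSC medium that had held no cells, so the medium and what the MDSCs released into it cannot be told apart.

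ATF4 is the effector of the integrated stress response. When amino acids run short, when unfolded proteins build up in the endoplasmic reticulum, or when mTORC1 is active, its protein is made in larger amounts from existing mRNA, and it then turns on genes that import and make amino acids and charge tRNAs. In fibroblast-like cells treated with TGF-β1, serine and glycine synthesis is known for feeding collagen, of which glycine is the most frequent residue.

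ATF4 binds DNA with a C/EBP protein at a composite element, and 2 spellings of its core were looked for, on both strands, from 250 bases before to 50 bases after the RefSeq start sites of the GRCm38.p6 mouse genome. TGATGNAA was in 3.97% of all 32851 windows and TGNNGCAAT in 2.12%, and a match to TGATGCAAT is counted under both. All 10 genes had such a window. The spellings were chosen after promoters had been seen, so the matches are not independent evidence. Asns, Chac1, Trib3 and Psat1 held at least 1 of the spellings, and the letters were not in the windows of the other 6 genes. The stretches around a match before the start site are shown 5′ to 3′ on the gene's own strand, with the match in capitals, for these 4 genes and for Fgf21, a secreted hormone that had the largest rise among the further ATF4 targets counted below.
Asns, 23 bases before the start, chr6:7693215-7693242, minus strand: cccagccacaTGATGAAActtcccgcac
Chac1, 193 bases before the start, chr2:119351039-119351066, plus strand: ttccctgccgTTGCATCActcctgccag
Trib3, 33 bases before the start, chr2:152344075-152344103, minus strand: gggtcacagaTGGTGCAATcccgggccgc
Psat1, 136 bases before the start, chr19:15925177-15925205, minus strand: cgcgggtggcTGGTGCAATcccctgctct
Fgf21, 140 bases before the start, chr7:45615612-45615640, minus strand: agacccccccATTGCATCAtccgtccagg
In the GENCODE annotation, whose transcripts can start elsewhere, the Asns stretch is in an exon and the Psat1 stretch in an intron of a longer transcript, and the other 3 are upstream. A match is a run of letters and not a measured binding site.

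The cells carried MSC transcripts in every group. The summed level of 6 MSC markers was 495 to 582 FPKM, the fragment count scaled for transcript length and library depth, and that of Kit and Pecam1, which MSCs lack, was at most 0.218. The 6 did not move together, so the sum hides opposite changes. Ly6a (Sca-1) went from 241 to 251 FPKM in untreated cells to 13.0 to 18.8 with TGF-β1. Itgb1, the largest part of the sum with TGF-β1, went from 247 to 263 FPKM to 381 to 388. Thy1 was at 3.94 to 5.27 FPKM in untreated cells and 1.34 to 2.42 in all other libraries, and Eng was at 0.635 to 0.968 FPKM. Libraries with supernatant also held transcripts of other tissues. The summed level of 8 hepatocyte markers was 0 in every untreated and TGF-β1 library, 69.2 to 75.5 FPKM in the TGF-β1/G-MDSC sup libraries, and 0.0762, 0.151 and 63.3 FPKM in TGF-β1/M-MDSC sup replicates 1 to 3. For 8 kidney tubule markers the sums were at most 0.14 FPKM without supernatant, 12.5 to 82.9 in TGF-β1/M-MDSC sup and 46.8 to 60.7 in TGF-β1/G-MDSC sup, and 4 globin genes summed to at most 0.457 FPKM without and 2.02 to 4.24 with supernatant. The summed level of 10 myeloid markers was 6.2 to 7.15 FPKM in untreated cells, 2.36 to 3.33 with TGF-β1, 4.54 to 7.17 with TGF-β1/M-MDSC sup and 6.04 to 8.44 with TGF-β1/G-MDSC sup. Its members did not move together: Ly6g and Ly6c2 were at 1.59 to 1.89 FPKM in untreated cells and at most 0.308 in all other libraries, while Lyz2 was at most 0.191 FPKM without supernatant and 0.651 to 2.29 with it, and S100a9 was at 0 without and reached 3.4 with it. The leukocyte gene Ptprc was at most 0.0157 FPKM in any library.

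The first question was how TGF-β1 alone, which drives these cells towards myofibroblasts, changed the genes. Of the 10 genes, 7 rose and 1 fell at an adjusted p under 0.05, where 34.0% of all tested genes passed in either direction, 16.1% upward and 17.9% downward. Trib3, Mthfd2, Asns, Psph, Chac1, Shmt2 and Phgdh rose, Ddit3 fell, and Psat1 and Atf4 did not pass. In bulk RNA, a change within every cell and a change in the share of cells that express a gene cannot be told apart. The median log2 fold change of the 10 was 0.70, and that of all tested genes was 0.0005. In each of the 8 genes that passed, the 3 TGF-β1 libraries lay entirely beyond the 3 untreated ones, which was so for 16.6% of all tested genes upward and 30.0% downward. By the call rule of the study, a fold above 2 or below 0.5 with an unadjusted p under 0.05, only Trib3 and Mthfd2 passed, against 6.74% of all tested genes.

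**Figure D1:**
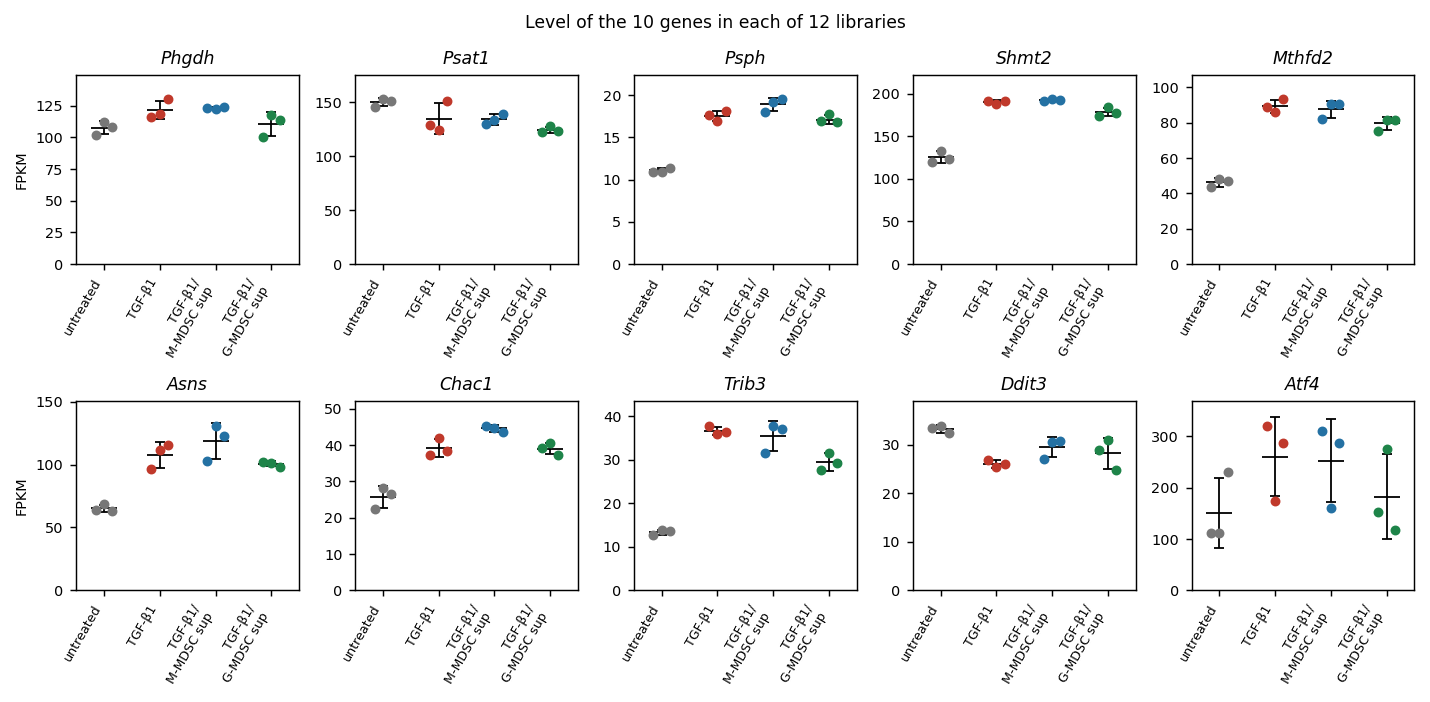
Level of each of the 10 genes in FPKM (linear axes from 0, scaled per gene) in the 12 libraries, by group, with each library as a point and the mean ± SD of 3 libraries as bars. For 7 genes the untreated points lie below all TGF-β1 points, while the Atf4 points of every group are spread widely, from 111.3 to 230.1 FPKM in untreated cells and from 174.0 to 321.2 with TGF-β1.

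Serine is made from a glycolytic intermediate in 3 steps, of which the last had the largest change and the middle one did not pass. Psph, the phosphatase of the last step, was at 10.9, 10.9 and 11.4 FPKM in the untreated libraries and at 17.6, 16.9 and 18.1 with TGF-β1. The groups were far apart, and the log2 fold change fitted on the counts was 0.72 ± 0.043 (SE, adjusted p = 3.98e-07). Psph lies at chr5:129765558-129787449 and overlaps Cct6a on the opposite strand, and the strand setting of the counting is not given, so reads of the pair may not have been told apart. Positions here and below are those of the whole genes on GRCm38. Psat1 and Mthfd2 each overlap a predicted gene, Gm3329 and Gm43890, and Phgdh, Shmt2, Asns, Trib3, Chac1 and Atf4 overlap no other gene of the table.

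Phgdh (chr3:98313170-98339990), the dehydrogenase of the first step, was at 102.2, 112.4 and 108.4 FPKM in untreated cells and at 116.5, 118.7 and 130.2 with TGF-β1. The groups did not overlap but came within a few FPKM of each other, and the log2 fold change was 0.23 ± 0.064 (SE, adjusted p = 0.0157). This call was lost without untreated replicate 1 (adjusted p = 0.0793), without TGF-β1 replicate 3 (0.0788), and with limma on log2(FPKM + 1) (0.0589). Psat1 (chr19:15904678-15947337), the aminotransferase of the middle step, was at 145.8, 152.6 and 151.2 FPKM in untreated cells and at 128.8, 124.4 and 150.7 with TGF-β1. Only TGF-β1 replicate 3 reached the untreated range, and the log2 fold change was -0.10 with a 95% interval from -0.24 to 0.04 (adjusted p = 0.272). Without that library it was -0.20 (adjusted p = 0.00605). Per length of transcript, Psat1 had the highest mean level of the 3 enzymes in every group, 149.8 ± 3.6 FPKM in untreated cells against 107.7 ± 5.12 for Phgdh and 11.1 ± 0.279 for Psph (SD, n = 3).

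Glycine is made from serine in mitochondria by Shmt2, and Mthfd2 passes on the one-carbon unit released in that step. Both rose in every TGF-β1 library. Shmt2 (chr10:127517123-127522444) was at 119.5, 133.3 and 123.5 FPKM in untreated cells and at 191.0, 187.7 and 192.1 with TGF-β1, a log2 fold change of 0.66 ± 0.041 (SE, adjusted p = 5.1e-07). Mthfd2 (chr6:83305691-83317606) was at 43.6, 48.1 and 46.9 FPKM in untreated cells and at 88.8, 86.0 and 93.3 with TGF-β1. Its fold was 2.01 (95% interval 1.85 to 2.19, adjusted p = 2.26e-07). The lowest TGF-β1 library of either gene was well above the highest untreated one.

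Asns (chr6:7675169-7693254), which makes asparagine, was at 64.0, 68.5 and 63.0 FPKM in untreated cells and at 96.3, 111.4 and 115.7 with TGF-β1. The TGF-β1 libraries were all higher than the untreated ones, and the log2 fold change was 0.78 ± 0.09 (SE, adjusted p = 5.48e-05).

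Trib3 (chr2:152337422-152344032), a pseudokinase that binds ATF4 and dampens its activity, had the largest change of the 10 genes. It was at 12.7, 13.8 and 13.6 FPKM in untreated cells and at 37.8, 35.9 and 36.5 with TGF-β1. Both groups were tight, with means of 13.4 ± 0.587 and 36.7 ± 0.972 FPKM (SD, n = 3), and the fold was 2.85 (95% interval 2.54 to 3.2, adjusted p = 8.67e-08). Chac1 (chr2:119351229-119354381), which breaks down glutathione, was at 22.3, 28.3 and 26.6 FPKM in untreated cells and at 37.2, 41.9 and 38.5 with TGF-β1. Every TGF-β1 library was above every untreated one, and the log2 fold change was 0.67 ± 0.082 (SE, adjusted p = 9.28e-05).

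Ddit3 (CHOP), the transcription factor that links prolonged stress to cell death, went the other way. It was at 33.4, 33.9 and 32.3 FPKM in untreated cells and at 26.8, 25.3 and 26.0 with TGF-β1. All 3 TGF-β1 libraries were lower, by -0.29 ± 0.078 on the log2 scale (SE, adjusted p = 0.0144), and without TGF-β1 replicate 2 the value was -0.27 (adjusted p = 0.0504). Ddit3 lies at chr10:127290774-127296288 and overlaps Mars1, a tRNA synthetase gene on the opposite strand that rose by 0.30 on the log2 scale (adjusted p = 0.000687), so here too reads may have been shared.

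Atf4 (chr15:80255184-80257541) mRNA itself was the most variable of the 10 genes. It was at 112.6, 111.3 and 230.1 FPKM in untreated cells and at 321.2, 174.0 and 286.7 with TGF-β1. TGF-β1 replicate 2 was below untreated replicate 3, so the groups overlapped, and the fold of 1.79 had a 95% interval from 0.963 to 3.33 (adjusted p = 0.141). Without untreated replicate 3 the log2 fold change was 1.27 rather than 0.84 (adjusted p = 0.0425). The SD of Atf4 within groups was 0.56 on the log2(FPKM + 1) scale, larger than in 97.5% of tested genes and in 97.6% of the 166 genes within 0.5 of its mean level, while that of the other 9 genes was 0.044 to 0.12.

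The spread of Atf4 was not seen in its target Trib3 in the same libraries. Untreated replicate 3 held 230.1 FPKM of Atf4 and 13.6 of Trib3, and untreated replicate 1 held 112.6 and 12.7. With TGF-β1, replicate 2 had the lowest Atf4, 174.0 FPKM, and its Trib3 level of 35.9 FPKM was close to the 37.8 and 36.5 of the other two libraries.

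**Figure D2:**
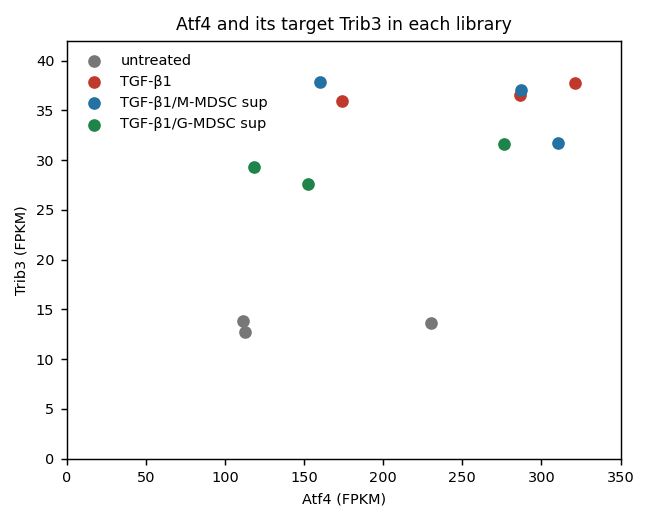
Level of Trib3 against that of Atf4 in each of the 12 libraries, both in FPKM on linear axes from 0, coloured by group. Trib3 keeps the 3 untreated libraries (12.7 to 13.8 FPKM) apart from all others, while Atf4 spreads from left to right within each group, for example from 118.1 to 276.2 FPKM in TGF-β1/G-MDSC sup.

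Further known ATF4 targets were counted in the same comparison. This list and those below were chosen with earlier results of these data known, so their counts are not independent of the data. Of 21 tested targets beyond the 10, 19 rose with TGF-β1 and none fell, where 16.1% of all tested genes rose and 17.9% fell, and their median log2 fold change was 0.81. Fgf21, whose sequence is shown above, went from 0.406 ± 0.19 to 5.05 ± 0.326 FPKM (SD, n = 3), a log2 fold change of 3.68. Cth, which makes cysteine, rose from 7.31 ± 0.5 to 31.0 ± 1.84 FPKM. Ddit4, an inhibitor of mTORC1, rose by 1.48 and Gpt2, an alanine aminotransferase, by 1.25 on the log2 scale. The 2 targets that did not pass were the transcription factors Atf5, with a log2 fold change of 0.15, and Cebpb, with -0.06, named after their values were seen. Cbs was below the expression minimum.

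Lists of amino acid transporters and tRNA synthetases that had been chosen as known ATF4 targets were counted next, and other transporters and synthetases were not. All 9 tested transporters of the first list rose, against 16.1% of all tested genes, with a median log2 fold change of 0.76. Slc7a3, which carries cationic amino acids, rose by 1.44, the glycine transporter Slc6a9 by 1.17, Slc1a4, which carries serine, alanine and cysteine, by 0.77, and the leucine transporter Slc7a5 by 0.76. In the second list, of aminoacyl-tRNA synthetases and the tRNA exporter Xpot, 13 of 13 rose, against the same 16.1%, with a median of 0.54. Tars (threonine) rose by 0.99, Gars (glycine) by 0.81, Xpot by 0.59 and Cars (cysteine) by 0.58. None of the 24 genes that had the largest changes among called genes of at least 5 FPKM in the 6 further lists lost its call in any of 14 alternative fits.

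The genes upstream of ATF4, the other arms of the unfolded protein response and the rest of folate metabolism were counted in the same way. Of 15 eIF2 kinases, eIF2 and eIF2B subunits and eIF2 phosphatase genes, 4 rose and 1 fell, a share near the 34.0% of all tested genes that passed in either direction, with a median log2 fold change of 0.14. Eif2b3 rose by 0.47, Eif2s2 by 0.39 and Ppp1r15b by 0.30, and Eif2ak2, the kinase PKR that senses double-stranded RNA, went from 13.9 ± 1.31 to 8.3 ± 0.392 FPKM (SD, n = 3). Of 14 endoplasmic reticulum chaperones and sensors, 6 rose, against 16.1% of all tested genes, and 8 did not pass, with a median of 0.18, and Ern1 (0.44), Hyou1 (0.36), Atf6 (0.35) and Manf (0.25) were the named ones. Of 16 tested folate and glycine cleavage genes, 6 rose, against the same 16.1%, with a median of 0.10. The mitochondrial folate enzymes Aldh1l2, at 1.37, and Mthfd1l, at 0.42, rose with Shmt2 and Mthfd2, and Dld rose by 0.22.

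**Figure D3:**
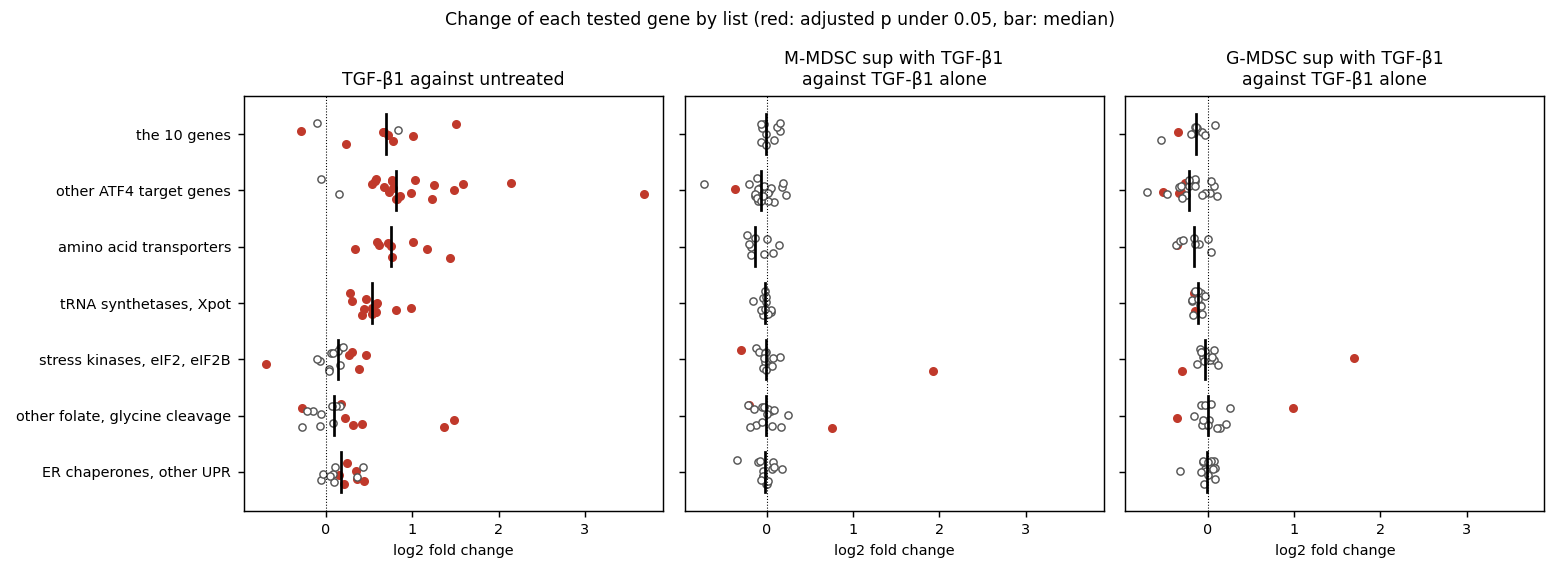
Log2 fold change of every tested gene of the 10-gene group and of the 6 further lists (rows) in 3 comparisons (panels), with red points for genes at adjusted p under 0.05 and a bar at each list's median. With TGF-β1 the transporter and synthetase rows lie wholly to the right of 0, and with either supernatant most points are open and near 0, and the farthest is Eif2ak2, at 1.93 and 1.70.

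The promoter letters were also counted over these lists, with the same limit that the spellings were chosen after promoters had been seen. Of 20 further targets with a window, 8 held TGATGNAA and 3 of these TGNNGCAAT as well, against 3.97% and 2.12% of all windows. The list counts are of genes, and a gene can have more than 1 window (the 20 targets had 26). The shares of all windows are therefore not a like background for them. The shares were 2 and 0 of 7 transporters, 5 and 2 of 9 synthetases, 1 and 0 of 13 eIF2 genes, and none of 15 folate and 11 chaperone genes.

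The next question was whether supernatant changed the genes in the presence of TGF-β1. Both supernatant groups were compared with the same 3 TGF-β1 libraries, so the 2 sets of values are not independent of each other. Adding M-MDSC sup changed none of the 10 genes by the edgeR test, where 4.78% of all tested genes passed. None of the 10 had an unadjusted p under 0.05 either, where 16.7% of all tested genes did, and DESeq2 called 0. The log2 fold changes ran from -0.07 to 0.16. Among the genes that TGF-β1 had raised, Trib3 was at 31.7, 37.9 and 37.0 FPKM, around the TGF-β1 libraries, and its difference had a 95% interval from -0.23 to 0.09 on the log2 scale. Mthfd2 was at 82.0, 90.5 and 90.4 FPKM with an interval from -0.17 to 0.07, and Shmt2 at 192.0, 193.6 and 192.8 FPKM with an interval from -0.09 to 0.09. Asns varied more, at 102.6, 131.1 and 122.7 FPKM, with an interval from -0.08 to 0.32.

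The 2 highest changes in that comparison were those of Chac1 and Ddit3. Chac1 was at 45.4, 44.6 and 43.7 FPKM, above all 3 TGF-β1 libraries, with a log2 fold change of 0.16 ± 0.081 (SE, adjusted p = 0.358). Ddit3 was at 27.0, 30.6 and 30.8 FPKM, also above all 3 TGF-β1 libraries, the highest of which was at 26.8, with 0.16 ± 0.078 (SE, adjusted p = 0.358). Of all tested genes, 13.4% were higher without overlap in this comparison. Atf4 was at 310.7, 160.2 and 287.2 FPKM, as widely spread as with TGF-β1 alone, and the 95% interval of its difference ran from -0.96 to 0.82 on the log2 scale.

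**Figure D4:**
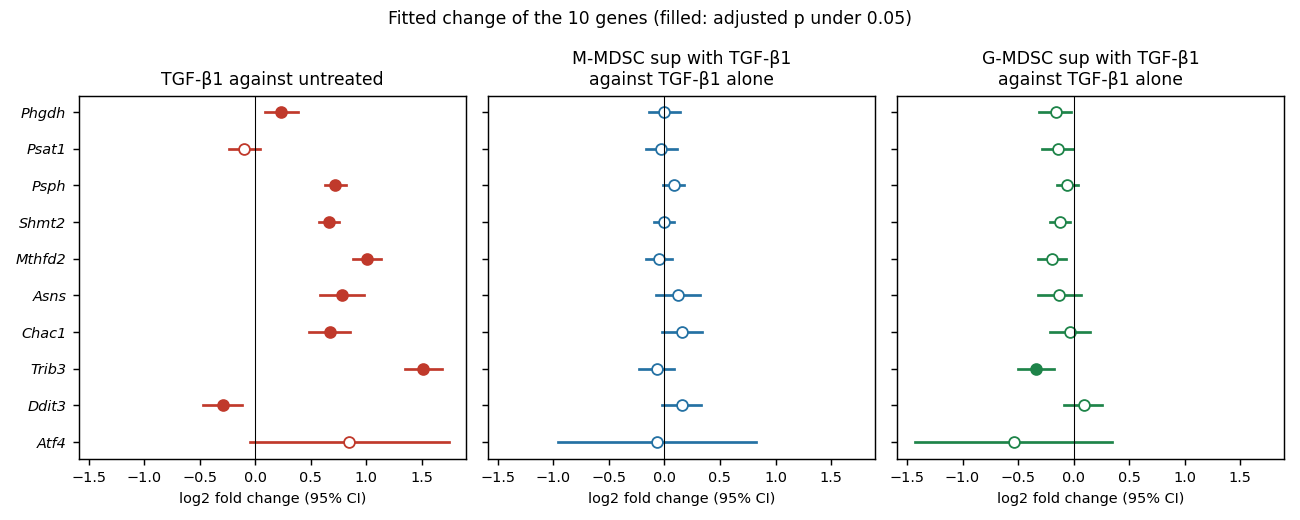
Log2 fold change of each of the 10 genes from the fit across all 12 libraries, with its 95% interval as a line, in 3 comparisons (panels), filled where the adjusted p was under 0.05. TGF-β1 gave 8 filled points, M-MDSC sup gave 0, and G-MDSC sup gave 1, Trib3 at -0.34, and the lines of Atf4 are the widest in each panel.

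With G-MDSC sup, 9 of the 10 log2 fold changes against TGF-β1 alone were below 0. Their median was -0.14, and that of all tested genes was -0.01. These signs come from the same libraries and are not independent of each other. Of the 10 genes 1 passed, Trib3, where 5.56% of all tested genes passed in either direction and 2.46% downward. Trib3 was at 27.6, 31.6 and 29.3 FPKM, below the 35.9 to 37.8 of the TGF-β1 libraries but still above the 12.7 to 13.8 of the untreated ones. The log2 fold change was -0.34 ± 0.072 (SE, adjusted p = 0.02). The call rested on every library but 1: it was lost without TGF-β1 replicate 1, 2 or 3 (adjusted p = 0.073, 0.0531 and 0.0724) and without TGF-β1/G-MDSC sup replicate 1 or 3 (0.0848 and 0.0604), with log2 fold changes from -0.36 to -0.30. The liver, kidney and globin transcripts given above were present in the same 3 TGF-β1/G-MDSC sup libraries, and their part in this difference was not tested.

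The mitochondrial enzymes showed small differences in the same direction that did not pass. Mthfd2 was at 75.5, 81.4 and 81.8 FPKM and Shmt2 at 174.4, 184.0 and 177.9, each below its 3 TGF-β1 libraries, which was so for 9.55% of all tested genes. Their log2 fold changes were -0.19 ± 0.056 (SE, adjusted p = 0.0799) and -0.12 ± 0.041 (SE, adjusted p = 0.154). Phgdh was at 100.1, 117.7 and 114.1 FPKM and Psat1 at 122.1, 127.6 and 123.2, and both overlapped the TGF-β1 libraries. In all, 5 of the 10 genes had an unadjusted p under 0.05, against 17.2% of all tested genes. Asns was at 102.3, 101.0 and 98.4 FPKM, Chac1 at 39.1, 40.5 and 37.4, and Ddit3 at 28.9, 31.0 and 24.7, and each of these overlapped its TGF-β1 libraries. Psph, at 16.9, 17.7 and 16.8 FPKM, differed by -0.06 with an interval from -0.15 to 0.04. Atf4, at 152.5, 276.2 and 118.1 FPKM, had the lowest log2 fold change, -0.54, and an interval from -1.43 to 0.35.

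In the further lists, the supernatants left most genes within the spread. With M-MDSC sup, 0 of 9 transporters, 0 of 13 synthetases and 0 of 14 chaperones passed, where 4.78% of all tested genes passed, and of the 21 further targets only Pycr1, which makes proline, passed, at -0.37 (adjusted p = 0.0497). That call was missed in 11 of 14 alternative fits, among them each that left out a single library other than TGF-β1/M-MDSC sup replicate 2. With G-MDSC sup, none of the 14 chaperones passed, and 4 of the 21 targets fell and none rose, where 5.56% of all tested genes passed in either direction and 2.46% fell. These were Pycr1, from 10.7 ± 0.522 to 7.7 ± 0.785 FPKM (SD, n = 3), Cth, from 31.0 ± 1.84 to 25.0 ± 1.96, Jdp2, at -0.31, and Atf5, at -0.26. The transporter Slc1a4 fell from 25.4 ± 0.137 to 20.2 ± 1.31 FPKM, and Tars and Aars fell by 0.15 and 0.16 on the log2 scale. Aldh1l2, next to Mthfd2 in mitochondrial folate metabolism, fell from 45.9 ± 4.14 to 36.6 ± 2.29 FPKM. Over 14 alternative fits of that comparison, Pycr1 and Slc1a4 passed in all, and Cth missed in 3, Aldh1l2 in 4, Jdp2 and Tars in 7, Atf5 in 9 and Aars in 12.

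The largest change in these lists with supernatant was that of Eif2ak2. This gene, which is also induced by interferons, was at 8.3 ± 0.392 FPKM with TGF-β1, 32.2 ± 0.959 with M-MDSC sup and 27.4 ± 0.778 with G-MDSC sup (SD, n = 3), log2 fold changes of 1.93 and 1.70 (adjusted p = 1.79e-08 and 6.99e-08) that passed in every one of 14 alternative fits. Eif2ak3, the kinase PERK, was at 4.63 ± 0.191 FPKM with TGF-β1 and at 3.82 ± 0.12 and 3.85 ± 0.284 with the supernatants (adjusted p = 0.0431 and 0.0407), and over the alternative fits of either comparison from 0 to 1 gene of its list was lower. Sfxn1, a mitochondrial serine carrier, was lower with M-MDSC sup, at -0.21 (adjusted p = 0.0245), and missed in 9 of 14 alternative fits. Gldc, of the glycine cleavage system, was low throughout, at 0.574 ± 0.0322 FPKM with TGF-β1, 0.985 ± 0.146 with M-MDSC sup and 1.16 ± 0.173 with G-MDSC sup, and was called higher with both (adjusted p = 0.0258 and 0.00502). With M-MDSC sup from 0 to 1 gene of its list was higher over the alternative fits. Eif2ak3 and Gldc were named after their values were seen. The liver, kidney and globin transcripts given above rose in the same libraries, and their part in these differences was not tested.

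Set against each other, both with TGF-β1, the supernatants differed in none of the 10 genes by the edgeR test, where 0.125% of all tested genes passed, and DESeq2 also called 0. All 10 log2 fold changes were above 0 for M-MDSC sup over G-MDSC sup, from 0.07 to 0.48. Their median was 0.15, and that of all tested genes was 7e-05. The 10 genes were measured in the same libraries, so their signs are not independent of each other. In 8 genes, all but Atf4 and Ddit3, each M-MDSC sup library was above each G-MDSC sup one, which was so for 5.97% of all tested genes, and 7 had an unadjusted p under 0.05, against 6.33%. Trib3 had the smallest p, with a log2 fold change of 0.27 and a 95% interval from 0.11 to 0.43 (adjusted p = 0.348). None of the genes of the 6 further lists passed between the supernatants. The summed hepatocyte markers differed between these groups as well, 0.0762 to 63.3 against 69.2 to 75.5 FPKM, and their part was not tested. That Trib3 passed with G-MDSC sup and not with M-MDSC sup is therefore not a shown difference between the supernatants.

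Measured from untreated cells, most of these genes were higher with either supernatant present. With TGF-β1/M-MDSC sup, 7 genes rose and none fell, where 35.2% of all tested genes passed in either direction and 16.4% upward. Trib3 rose by 1.44, Mthfd2 by 0.96, Asns by 0.90, Chac1 by 0.83, Psph by 0.81 and Shmt2 by 0.65 on the log2 scale, and the call of Phgdh, at 0.23, was lost without untreated replicate 1 (0.19, adjusted p = 0.0689). With TGF-β1/G-MDSC sup, 6 genes rose and 1 fell, where 34.8% passed in either direction, 16.4% upward and 18.4% downward. Trib3 rose by 1.17, Mthfd2 by 0.82, Psph and Asns by 0.66, Chac1 by 0.63 and Shmt2 by 0.54, Phgdh did not pass, at 0.07 (95% interval -0.07 to 0.21), and Psat1 was lower, at -0.24 (adjusted p = 0.0126), a call lost without untreated replicate 2 (-0.21, adjusted p = 0.055). Ddit3 stood at -0.14 with M-MDSC sup (adjusted p = 0.214) and at -0.20 with G-MDSC sup (adjusted p = 0.0686), and the latter passed without TGF-β1/G-MDSC sup replicate 2 (-0.28, adjusted p = 0.0239). Of the further lists, 19 of 21 targets, 9 of 9 listed transporters and 13 of 13 listed synthetases rose with TGF-β1/M-MDSC sup, and 18, 9 and 12 with TGF-β1/G-MDSC sup, where 16.4% of all tested genes rose in each comparison. Of the 15 eIF2 genes, 7 rose and 1 fell with M-MDSC sup and 6 rose and 1 fell with G-MDSC sup. Of the 16 folate genes 4 and 5 rose, and of the 14 chaperones 7 rose in each. By the call rule of the study, 1 gene, Trib3, passed in each of these 2 comparisons, against 6.98% and 6.80% of all tested genes. By that rule none of the 10 passed for M-MDSC sup against TGF-β1, G-MDSC sup against TGF-β1 or M-MDSC sup against G-MDSC sup, against 2.18%, 2.17% and 0.549%.

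The genes whose pattern over the 12 libraries was most like that of Trib3, which had the widest range of group means (1.39 on the log2(FPKM + 1) scale), were sought among all other tested genes. By the root mean square difference of their centred log2(FPKM + 1) values they were Adm2 (0.097), Plk2 (0.105), Aldh1l2 (0.114), Npr3 (0.121) and Gadd45b (0.125). Adm2, a secreted peptide of the calcitonin family, was at 3.52 ± 0.35 FPKM in untreated cells, 12.1 ± 0.627 with TGF-β1, 11.8 ± 0.453 with M-MDSC sup and 9.81 ± 0.879 with G-MDSC sup (SD, n = 3). Like Trib3 it was lowest in untreated cells and, among the treated groups, lowest with G-MDSC sup. Gadd45b, a growth arrest and stress gene, was at 23.5 ± 1.34 FPKM in untreated cells, 55.0 ± 2.55 with TGF-β1, 59.9 ± 2.23 with M-MDSC sup and 54.3 ± 2.32 with G-MDSC sup, and its means with TGF-β1 alone and with G-MDSC sup differed by less than their SD.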

How the data were processed

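Total RNA was enriched for poly(A) transcripts, made into strand-marked libraries and sequenced from both ends. The submitters' processing notes name cutadapt 1.9, HISAT2 2.0.4 and StringTie 1.3.4d, and the methods name fastp and the GRCm38 genome. The authors deposited raw counts and FPKM per gene and library. The tool and strand setting behind the counts are not given in the sources used here, and FPKM is written as 0.0001 where the count is 0. Low counts cluster at multiples of 4 (44.3% of those from 1 to 12 are 4, 8 or 12), and a fit of counts divided by 4 was added for this.

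A gene was tested if its FPKM reached 1 in 3 or more of the 12 libraries. The test was edgeR's quasi-likelihood test on the deposited counts, two-sided (edgeR 4.0.16, R 4.3.3), fitted to all 4 groups together after TMM scaling (factors 0.978 to 1.03), and p-values were adjusted over the 12016 genes by Benjamini and Hochberg's method. DESeq2 1.42.0 and limma 3.58.1 on log2(FPKM + 1) and log2(FPKM + 0.1) were alternatives, with other scaling, no filter, only the groups compared, a replicate block and each replicate left out. Only the edgeR fit, for TGF-β1 against untreated, was also run on simulated data, and its outcome is not given here. Python 3.11.15 with pandas 2.3.3 made the summaries. Levels are the deposited FPKM, with SD over 3 libraries, and fold changes come from the counts. Columns of the authors' own comparisons were not used.

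All 10 genes are named. From each further list, up to 4 genes were named for TGF-β1 against untreated and for each supernatant against TGF-β1, those with the largest absolute log2 fold change among genes at adjusted p under 0.05 and mean FPKM of at least 5 in either group. A result of the folate list that this rule gave is not reported here. The supernatant groups against untreated are given for these lists as counts, without the genes the rule gave there. The 5 genes most like the member with the widest range of group means are also named. The genes, lists and tests were chosen with earlier results of these data known, and the motif spellings after promoters had been seen. Conditions were taken from the library names. No source says whether replicates were separate cultures, so p-values measure the spread between these libraries, which may be technical.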

Additional observations from a re-analysis of the deposited data

How the results depend on the processing

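Averaged over genes above a minimum count in the 2 libraries compared, counts of same-group libraries varied 45.0 to 62.7 times as much as counting alone would give. This holds if each count were 1 fragment, which the clustering of low counts at multiples of 4 puts in doubt. How far depth limits each of the 10 genes was not tested. Over 840 refitted gene values (10 genes, 6 comparisons, 14 alternatives each), 799 kept their direction and their side of the threshold, 12 kept the direction but no longer passed, 6 passed only in the alternative, and 23 changed sign, all from values that had not passed; the cause was not tested. Under the rule of a fold above 2 or below 0.5 with an unadjusted p under 0.05, 2 of the 10 genes were called for TGF-β1 against untreated, 0 for G-MDSC sup against TGF-β1, and 1 each for M-MDSC sup and G-MDSC sup against untreated. Leaving out 1 library gave 0 to 1 for G-MDSC sup against TGF-β1.

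Residuals of same-numbered libraries had a mean correlation of -0.0038 over 18 pairs (-0.16 to 0.078), against 0.002 over 36 other pairs. Such means do not show whether single genes were paired by replicate number, which was not tested. For TGF-β1 against untreated, the replicate block lowered the SE of Mthfd2 (0.056 to 0.042), Asns (0.09 to 0.075) and Phgdh (0.064 to 0.053). The block also lowered the SE of Trib3, Chac1, Psat1 and Shmt2. It raised that of Atf4 (0.4 to 0.43), Ddit3 (0.078 to 0.08) and Psph (0.043 to 0.045). With the replicate block 2 genes were called for G-MDSC sup against TGF-β1, Trib3 and Mthfd2 (-0.19, adjusted p = 0.035), and the counts of the other 5 comparisons were 8, 0, 0, 7 and 7, as without it.

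Signs that changed were those of values near 0 or of Atf4. Where the change came from leaving out 1 library, the range over all such refits is given. For M-MDSC sup against TGF-β1, Phgdh became 0.01 with median-ratio scaling, no filter, only the groups compared or DESeq2, 0.02 with limma at either pseudocount, 0.06 without TGF-β1 replicate 3 and 0.003 without TGF-β1/M-MDSC sup replicate 2 (-0.03 to 0.06). Shmt2 became 0.01 under those same first 4 settings and 0.02 with limma or without TGF-β1 replicate 3 (-0.01 to 0.02). Atf4 became 0.11, 0.02 and 0.18 without TGF-β1 replicates 1 and 3 and TGF-β1/M-MDSC sup replicate 2 (-0.29 to 0.18), Psat1 0.08 without TGF-β1 replicate 3 (-0.08 to 0.08), and Trib3 0.005 without TGF-β1/M-MDSC sup replicate 1 (-0.12 to 0.005). Chac1 became 0.02 for G-MDSC sup against TGF-β1 without TGF-β1 replicate 2 (-0.07 to 0.02), Ddit3 -0.02 for M-MDSC sup against G-MDSC sup without TGF-β1/G-MDSC sup replicate 3 (-0.02 to 0.14), and Atf4 -0.13 for G-MDSC sup against untreated without TGF-β1/G-MDSC sup replicate 2 (-0.13 to 0.73). The lists were refitted in the same ways, a choice made after their values were seen: with TGF-β1, 18 to 19 further targets, 9 listed transporters and 13 listed synthetases rose in every alternative, and with G-MDSC sup 1 to 7 further targets fell.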
